A study of Mus musculus with 3 samples.

Results

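CpG clusters between genes are stretches of 20 or more CpGs, each no further than 50 bp from the next, that lie more than 2 kb from every gene of the GENCODE M1 annotation of the mouse assembly mm9. The positions were those listed by any of 3 libraries on the 19 autosomes, and the rule itself uses no measured level. Of 27183 autosomal clusters, 6148 (22.6%) lay between genes and held 190108 CpGs. A further 16674 clusters lay within 2 kb of the start of a transcript, and 4361 lay in or near genes but away from a start. The median cluster between genes was 397 bp long with 26 CpGs, against 564 bp and 49 CpGs at gene starts.

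TAPSβ, CAPS and PS were applied to gDNA of E14 mESCs, a line of pluripotent mouse cells, with 1 library each. The cells of all 3 libraries were grown with serum, LIF and the inhibitors PD0325901 and CHIR99021, and no treatment or genotype was compared. TAPSβ reads 5mC, CAPS reads 5hmC, and PS reads 5fC with 5caC, each as the share of base calls read as T at a CpG cytosine, called its level here. The chemistries of TAPSβ and CAPS also convert 5fC and 5caC, so that their levels include these bases. The median listed cytosine was covered by 13 TAPSβ reads and by 9 reads in each of the other libraries, and the pooled autosomal levels were 57.4%, 3.15% and 0.240%. Without replicates, every interval is an exact 95% binomial interval, or for a ratio a log-scale interval from the modified counts, and covers counting error only. Base calls of the same read, and clusters that share sequence or lie side by side, were treated as independent.

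Most CpGs of a mammalian genome are methylated and thinly spread, while dense CpG runs, known as CpG islands, mostly escape methylation and often sit at promoters. Islands far from annotated genes are called orphan islands, and some mark unannotated starts or regulatory elements of developmental genes. Other dense CpG runs come from dispersed repeats, in which methylation is known to restrain transposition, and TET enzymes oxidize 5mC stepwise to 5hmC, 5fC and 5caC.

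The sequences below show what such clusters look like, with every CpG in capitals. They are 200 bases around the middle of a cluster, from the plus strand of mm9 (NCBIM37). The first 3 are the clusters with the most CpGs among those of usual coverage that were unmethylated, intermediate or methylated in TAPSβ. Usual coverage here sets an upper limit, given with the processing, and no lower one. The next is the cluster with the highest CAPS level among those of usual coverage with at least 500 base calls in CAPS and in PS, and the last 4 are members of the 4 largest groups of clusters with shared sequence, all described further on.
Unmethylated, chr15:85501360-85501559: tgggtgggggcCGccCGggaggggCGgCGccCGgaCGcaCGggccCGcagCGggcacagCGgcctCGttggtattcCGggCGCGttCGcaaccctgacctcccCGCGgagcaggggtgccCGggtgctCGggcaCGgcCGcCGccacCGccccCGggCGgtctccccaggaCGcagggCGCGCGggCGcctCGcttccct
Intermediate, chr4:155511619-155511818: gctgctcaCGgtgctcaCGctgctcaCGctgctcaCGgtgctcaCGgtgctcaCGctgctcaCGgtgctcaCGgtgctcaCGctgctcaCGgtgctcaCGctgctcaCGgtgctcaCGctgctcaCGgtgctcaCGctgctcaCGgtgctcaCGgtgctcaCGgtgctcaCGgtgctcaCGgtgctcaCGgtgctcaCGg
Methylated, chr4:12330097-12330296: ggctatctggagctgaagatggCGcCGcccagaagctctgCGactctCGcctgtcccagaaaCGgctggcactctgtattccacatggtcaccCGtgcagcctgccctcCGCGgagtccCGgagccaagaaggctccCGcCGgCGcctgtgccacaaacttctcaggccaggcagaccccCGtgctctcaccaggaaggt
Highest CAPS, chr15:37841459-37841658: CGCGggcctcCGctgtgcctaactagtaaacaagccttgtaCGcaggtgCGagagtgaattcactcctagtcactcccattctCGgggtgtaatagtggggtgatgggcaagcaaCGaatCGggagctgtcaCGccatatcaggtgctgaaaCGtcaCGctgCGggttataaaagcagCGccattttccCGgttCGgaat
Group A, chr6:78345988-78346187: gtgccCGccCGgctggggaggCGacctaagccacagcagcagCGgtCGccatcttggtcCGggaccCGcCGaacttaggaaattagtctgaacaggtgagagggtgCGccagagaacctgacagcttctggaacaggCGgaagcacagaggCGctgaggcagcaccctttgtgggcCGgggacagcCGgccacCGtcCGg
Group B, chr1:4075315-4075514: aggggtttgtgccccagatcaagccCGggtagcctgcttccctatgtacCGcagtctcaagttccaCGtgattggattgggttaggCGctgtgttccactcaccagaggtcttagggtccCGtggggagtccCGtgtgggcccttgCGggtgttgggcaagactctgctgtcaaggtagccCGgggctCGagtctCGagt
Group C, chr10:85231249-85231448: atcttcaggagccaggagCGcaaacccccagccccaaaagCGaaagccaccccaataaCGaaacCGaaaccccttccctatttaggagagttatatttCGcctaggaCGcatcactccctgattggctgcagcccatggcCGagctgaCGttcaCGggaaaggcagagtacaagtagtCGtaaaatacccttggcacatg
Group D, chr14:72457039-72457238: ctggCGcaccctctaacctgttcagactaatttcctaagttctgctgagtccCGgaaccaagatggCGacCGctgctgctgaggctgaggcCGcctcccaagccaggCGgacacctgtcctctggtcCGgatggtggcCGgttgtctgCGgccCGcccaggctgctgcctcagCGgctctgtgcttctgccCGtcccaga

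The shown stretches differed in how densely they held CpGs and in how often their sequence recurs. The unmethylated stretch held 31 CpGs in 200 bases, the intermediate one 22, in a short tandem unit that is visible in the letters, and the methylated one 13. The copy number of a cluster was taken as the median number of times its 31-base words occur in the reference, on either strand. It was 1 for the unmethylated cluster, 10 for the intermediate one and 129 for the methylated one. Groups A and B had medians of 2233 and 1912.5 copies in the clusters shown, group C 429 and group D 791.

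Clusters were classed by their pooled TAPSβ level as unmethylated (under 20%), intermediate (20% to below 60%) or methylated (60% or more), where at least 50 TAPSβ base calls were available. This held for 5390 clusters, and 758 stayed unclassed, of which 725 had 10 or more copies. Of the classed clusters 2473 were unmethylated, a share of 45.9% (95% interval 44.5 to 47.2%). Another 1187 (22.0%, 20.9 to 23.2%) were intermediate, and 1730 (32.1%, 30.9 to 33.4%) were methylated. At gene starts 95.2% of clusters were unmethylated and 1.26% methylated, and away from starts in genes the shares were 51.2% unmethylated, 29.1% intermediate and 19.6% methylated. Over all copies, clusters between genes thus held a larger methylated share than either other position. Copy number was not matched between positions, and clusters between genes with a copy number of 1 were methylated in 8.78%. The intervals treat clusters as independent, although 50.5% of those between genes belonged to 8 groups of shared sequence. The limits matter to the split: with 10 and 80% as limits the 3 shares were 31.8%, 53.9% and 14.3%.

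Copy number separated the clusters into sets of very different makeup. Single-copy clusters numbered 1625, clusters of 2 to 9 copies 462, and clusters of 10 or more copies 4061. Among the 1617 classed single-copy clusters 78.6% (76.5 to 80.6%) were unmethylated, 12.6% intermediate and 8.78% methylated. Among 3336 classed clusters of 10 or more copies the shares were 33.9% (32.3 to 35.5%), 26.8% and 39.4%. Read from the other side, 51.4% of the unmethylated clusters were single-copy, against 17.2% of the intermediate and 8.21% of the methylated ones. The median TAPSβ level was 2.10% in single-copy clusters and 40.3% in those of 10 or more copies. The copy numbers describe the reference and not the E14 genome.

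**Figure D1:**
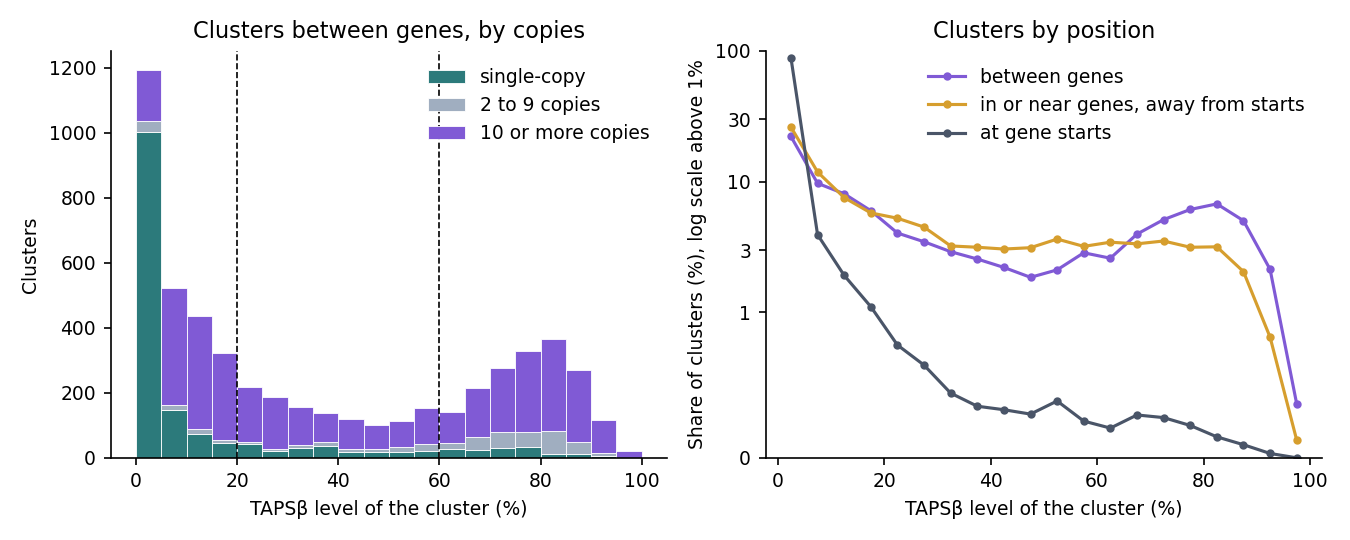
TAPSβ level of each classed cluster in steps of 5 points: left, numbers of clusters between genes stacked by copy number, with dashed lines at the class limits of 20 and 60%; right, the share of clusters per step by position, on a scale that is linear to 1% and logarithmic above. Single-copy clusters make up most of the lowest step, the second rise near 80% is made mostly of clusters of 10 or more copies, and clusters at gene starts show no such rise.

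The classes were also called on each strand alone, within the same library. With at least 25 TAPSβ base calls on each strand, 4404 of 5062 clusters (87.0%) fell in the same class on both, and 4 were unmethylated on one and methylated on the other. The median difference between strands was 3.86 points.

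Larger single-copy clusters were more often unmethylated. The unmethylated share was 65.9% of 901 clusters with 20 to 29 CpGs, 91.5% of 446 with 30 to 49, 99.5% of 222 with 50 to 99, and all 48 with 100 or more. In clusters of 10 or more copies the same size steps gave 29.6%, 38.4% and 58.5%, and the last step held 3 clusters. Distance from genes went with the class as well. Among single-copy clusters 88.5% (84.7 to 91.6%) were unmethylated at 2 to 5 kb from a gene, 80.4% at 10 to 50 kb, 59.7% at 50 to 200 kb, and 31.7% (18.1 to 48.1%) of the 41 clusters beyond 200 kb. Base composition differed between classes over all copies: the median GC content was 65.3% in unmethylated, 63.4% in intermediate and 53.9% in methylated clusters. The median ratio of observed to expected CpGs was 0.688, 0.649 and 0.902. These medians are not split by copy number, and 75.9% of the methylated clusters had 10 or more copies. Of the sequence groups described further on, group A, mostly unmethylated, had medians of 66.2% and 0.627. Group C, mostly methylated, had 53.0% and 0.921. The density of clusters ran from 1.81 per Mb on chromosome 11 to 2.97 per Mb on chromosome 13. The unmethylated share of single-copy clusters ran from 63.6% on chromosome 16 to 87.9% on chromosome 7.

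The intermediate clusters carried the highest CAPS level. Pooled over each class, CAPS was 1.97% (1.95 to 2.00%) in unmethylated, 4.46% (4.39 to 4.53%) in intermediate and 2.27% in methylated clusters. The classes were cut on TAPSβ, so the CAPS levels are a separate readout of the same DNA. False positives, at the rate given with the processing, are part of these levels and of the ratios between them. The ratio of intermediate to methylated clusters was 1.96 (1.92 to 2.01), and it was above 1 on 19 of 19 autosomes, between 1.24 and 2.61. In single-copy clusters alone the 3 levels were 1.41%, 5.03% and 2.59%, with a ratio of 1.94 (1.83 to 2.06). In clusters of 10 or more copies they were 3.79%, 4.36% and 2.22%, with a ratio of 1.96 (1.91 to 2.01). There the intermediate class stood less clearly above the unmethylated one, at a ratio of 1.15 (1.12 to 1.18) that was above 1 on 14 of 19 autosomes, against 3.57 and 19 of 19 in single-copy clusters. In clusters of 2 to 9 copies this ratio was 1.57, above 1 on 11 of 16 autosomes. The order of the other 2 classes differed between the copy sets. In single-copy clusters methylated ones stood above unmethylated ones, by a ratio of 1.83 (1.74 to 1.93). In those of 10 or more copies they stood below, at 0.585 (0.570 to 0.601). Pooled over all copies this ratio was 1.15. Without variant-like cytosines, which are defined with the PS levels, and with clusters classed again without them, it was 0.982, with an interval that included 1. With the classes kept, CAPS without these cytosines was 1.92% in unmethylated and 1.91% in methylated clusters. The unmethylated class was not alike in both sets: 1150 of 1271 single-copy members had a TAPSβ level under 10%, against 516 of 1130. At 10 to 20% TAPSβ the CAPS level was 4.66% in single-copy clusters and 4.54% at 10 or more copies. Whether this makeup accounts for the change of order was not tested.

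In finer steps of the TAPSβ level CAPS was highest at the same step in both copy sets. In single-copy clusters CAPS was 1.22% (1.20 to 1.24%) where TAPSβ was under 10%, and 4.66% in the next step. At 20 to 30% it was 5.25% (4.95 to 5.55%), an interval that overlapped that of the step after it. It was highest, at 5.54% (5.24 to 5.85%), in the 66 clusters with a TAPSβ level of 30 to 40%. From there it fell to 3.38% at 60 to 70%, 2.37% at 70 to 80% and 1.39% (0.974 to 1.93%) in the 6 clusters at 90% or more. Clusters of 10 or more copies also had their highest CAPS level at 30 to 40%, at 5.04% (4.86 to 5.22%). Their CAPS level was 3.69% (3.56 to 3.83%) at 50 to 60% and higher again, 4.19% (4.08 to 4.30%), at 60 to 70%, where it was 2.82% without variant-like cytosines. Both sets differed most under 10% TAPSβ, where clusters of 10 or more copies had a CAPS level of 2.78% (2.67 to 2.88%). Within this step the sets were not alike in TAPSβ. Of 1150 single-copy clusters 1002 had a TAPSβ level under 5%, against 155 of 516 clusters of 10 or more copies. Whether this accounts for the CAPS difference was not tested.

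**Figure D2:**
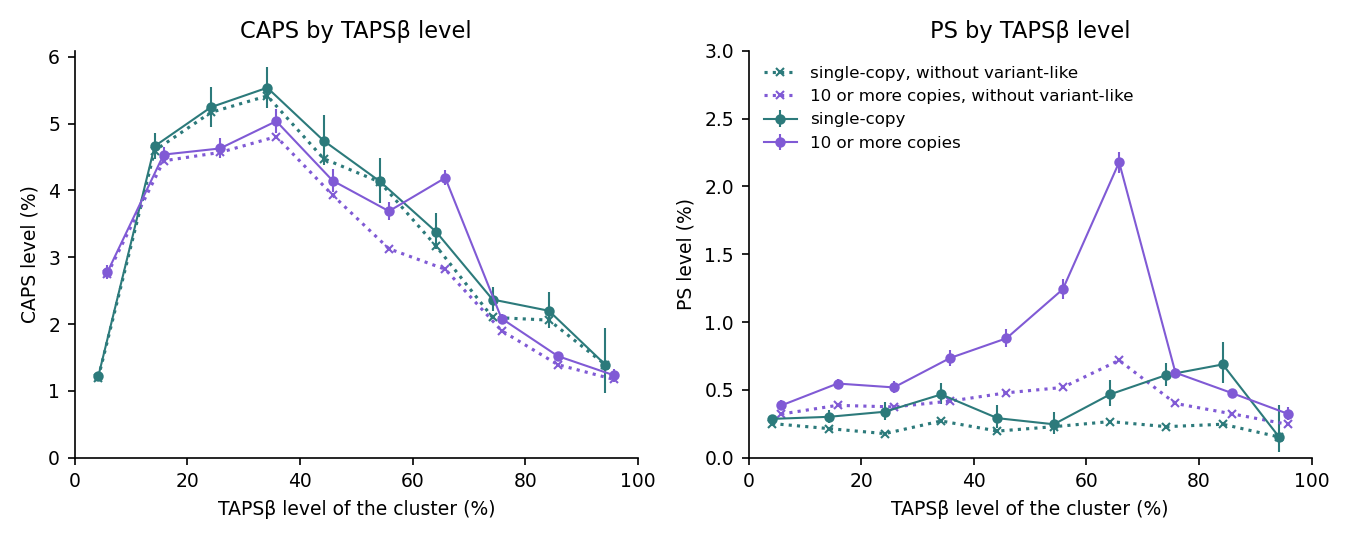
CAPS level (left) and PS level (right) of clusters between genes, in percent, pooled over steps of 10 points of their TAPSβ level, for single-copy clusters and clusters of 10 or more copies; bars are 95% intervals and crosses leave out variant-like cytosines. CAPS is highest at a TAPSβ level of 30 to 40% in both sets, in single-copy clusters with an interval that overlaps that at 20 to 30%. The PS peak of 2.18% at 60 to 70% in clusters of 10 or more copies drops to 0.719% without variant-like cytosines.

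Intermediate clusters were also highest by the median over single clusters. Among clusters with at least 50 CAPS base calls the median CAPS level was 1.94% in unmethylated, 4.35% in intermediate and 1.63% in methylated clusters, so that the unmethylated and methylated classes stood in the opposite order to the pooled levels. In single-copy clusters the medians were 1.16%, 5.15% and 2.26%. A CAPS level of 5% or more was reached by 106 of 204 single-copy intermediate clusters (52.0%), by 67 of 1270 unmethylated ones (5.28%) and by 10 of 142 methylated ones (7.04%). Of the 1270 single-copy unmethylated clusters, 612 (48.2%) had a CAPS level above their TAPSβ level.

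Calls against a false-positive rate ranked the classes of single-copy clusters in the same order. A cluster was called where its CAPS level exceeded the rate of the study's spike-in DNA, given with the processing, by a one-sided binomial test with Benjamini-Hochberg adjustment over all autosomal clusters. Of 26323 tested clusters at any position 32.8% were called, and of 5548 between genes 2883 (52.0%) were. By class the called share was 47.8% of unmethylated, 81.5% of intermediate and 43.8% of methylated clusters, and in single-copy clusters 32.8%, 91.7% and 58.5%. Larger clusters and deeper coverage make a call easier, so these shares were not compared further. Single cytosines were tested from 5 CAPS reads upward, and 1.64% passed across all chromosomes, against 2655 of 222732 (1.19%) in clusters between genes. The called share of cytosines was 0.736% in unmethylated, 2.38% in intermediate and 1.23% in methylated clusters, so of the 3 classes only the intermediate one stood above the share across all chromosomes.

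PS levels were low in all classes and rested in part on a few cytosines. The pooled PS level was 0.364% (0.354 to 0.374%) in unmethylated, 0.732% in intermediate and 0.815% in methylated clusters, against 0.240% across the autosomes, which is below the false-positive rate of PS given with the processing. The methylated to unmethylated ratio was 2.24 (2.16 to 2.32), and above 1 on 17 of 19 autosomes. In single-copy clusters it was 1.96 but above 1 on 9 of 19, and in clusters of 2 to 9 copies it was 0.626. The median over clusters barely differed, at 0.233%, 0.270% and 0.234%. Variant-like cytosines were those that reached 20% in PS with a depth of at least 5 reads, a filter that lowers PS by its construction. The name is a label only. No list of variants was applied, such sites may carry 5fC or 5caC, and at 5 reads 1 modified call is enough. Whether they are variants was not tested. Variant-like cytosines numbered 1402, in 815 clusters (13.3%). Without them, and with the classes kept, the pooled levels were 0.287% (0.278 to 0.296%), 0.403% (0.385 to 0.421%) and 0.395% (0.382 to 0.408%). In single-copy clusters without them they were 0.250% (0.240 to 0.260%), 0.221% (0.192 to 0.253%) and 0.241% (0.206 to 0.282%), so that no class there stood above the unmethylated one, and all 3 lay below the false-positive rate. By the same test as for CAPS, 2.93% of all 26399 tested clusters were called in PS, and 463 of 5600 (8.27%) between genes. The called share was 3.40% of unmethylated, 9.27% of intermediate and 12.2% of methylated clusters, and 2.09% in single-copy clusters. Without variant-like cytosines 211 clusters between genes (3.77%) were called, against 1.22% of all tested clusters.

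Coverage differed between the classes and did so differently in each library. Coverage is given as the mean reads per listed cytosine of a cluster, relative to the median cytosine of the library. The median cluster had 0.915 in TAPSβ where unmethylated, 0.450 where intermediate and 0.338 where methylated. In PS the same 3 classes had 0.860, 0.826 and 1.03, and in CAPS 0.656, 0.608 and 0.961. The methylated clusters were therefore covered least in TAPSβ and most in the other libraries. The order in TAPSβ was also present in single-copy clusters, with 1.18, 0.732 and 0.500 in TAPSβ against 1.07, 1.08 and 1.08 in PS. The median ratio of relative coverage in TAPSβ to that in PS was 1.11, 0.672 and 0.443 in the 3 classes of single-copy clusters, and 0.901, 0.586 and 0.313 in those of 10 or more copies. Whether this difference bears on the TAPSβ levels was not tested. Leaving out clusters under 200 TAPSβ base calls moved the unmethylated share to 53.4%.

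**Figure D3:**
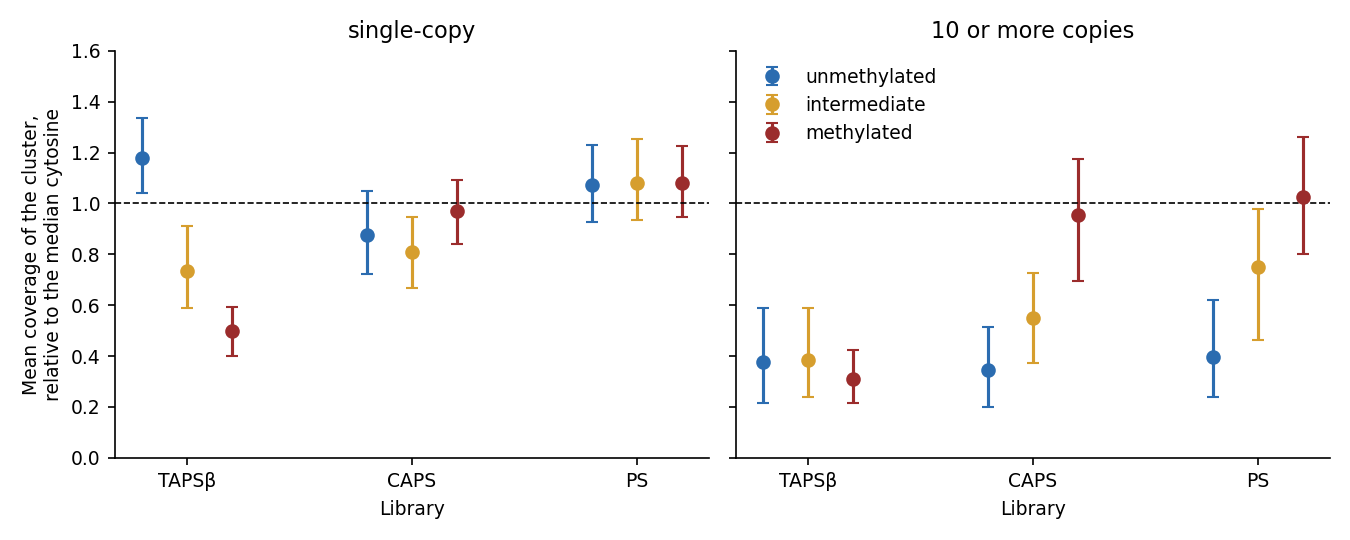
Mean coverage of clusters between genes in each library, relative to the library's median cytosine (dashed line at 1), for single-copy clusters (left) and clusters of 10 or more copies (right); points are medians over clusters and bars run between the quartiles. In TAPSβ single-copy clusters fall from 1.18 to 0.500 with the methylation class, while in PS the 3 classes sit at 1.07 to 1.08.

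Few clusters had a high coverage in any library, and low coverage was more frequent in repeated clusters. A mean coverage over 2 times the median cytosine was seen in 23 of the 6148 clusters in TAPSβ, 53 in CAPS and 60 in PS. Of the methylated clusters 1.91% exceeded it in CAPS and 1.97% in PS, against 0.445% and 0.647% of the unmethylated ones. Coverage under 0.5 times the median was seen in TAPSβ in 78.2% of clusters with 10 or more copies and in 7.63% of single-copy clusters, and in PS in 41.7% and 1.29%. Reads of low mapping quality had been dropped by the authors, and the part of this filter in the coverage of repeated clusters was not tested. The sequence groups described further on differed here: group F had a median relative coverage of 0.22 in TAPSβ, 1.03 in CAPS and 1.06 in PS. The unclassed clusters had a median relative coverage of 0.0470 in TAPSβ, where low coverage is what left them unclassed, and 0.155 in PS.

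The levels around the clusters differed as well. The TAPSβ level in the middle follows from the class limits and is given only to set the surroundings against it. In single-copy unmethylated clusters TAPSβ was 2.17% within 200 bp of the middle and rose to 11.5% at 400 to 600 bp, 33.2% at 1 to 2 kb and 38.1% at 2 to 3 kb. CAPS rose from 1.40% in the middle to 3.74% at 1 to 2 kb, so that the unmethylated cores were also low in CAPS. Single-copy intermediate clusters had a shallower dip in TAPSβ, from 55.2% at 2 to 3 kb to 34.7% in the middle. Their CAPS level was highest near the cluster, at 4.95% within 200 bp and 5.17% at 400 to 600 bp, and was 3.33% at 2 to 3 kb. Single-copy methylated clusters had 73.8% in the middle and 63.4% at 2 to 3 kb. Repeated clusters, with a median above 1 copy, lay in more methylated surroundings: unmethylated ones had 65.4% TAPSβ at 2 to 3 kb and 8.88% in the middle. Their CAPS level was 3.40% in the middle, 4.85% at 400 to 600 bp and 2.50% at 2 to 3 kb.

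**Figure D4:**
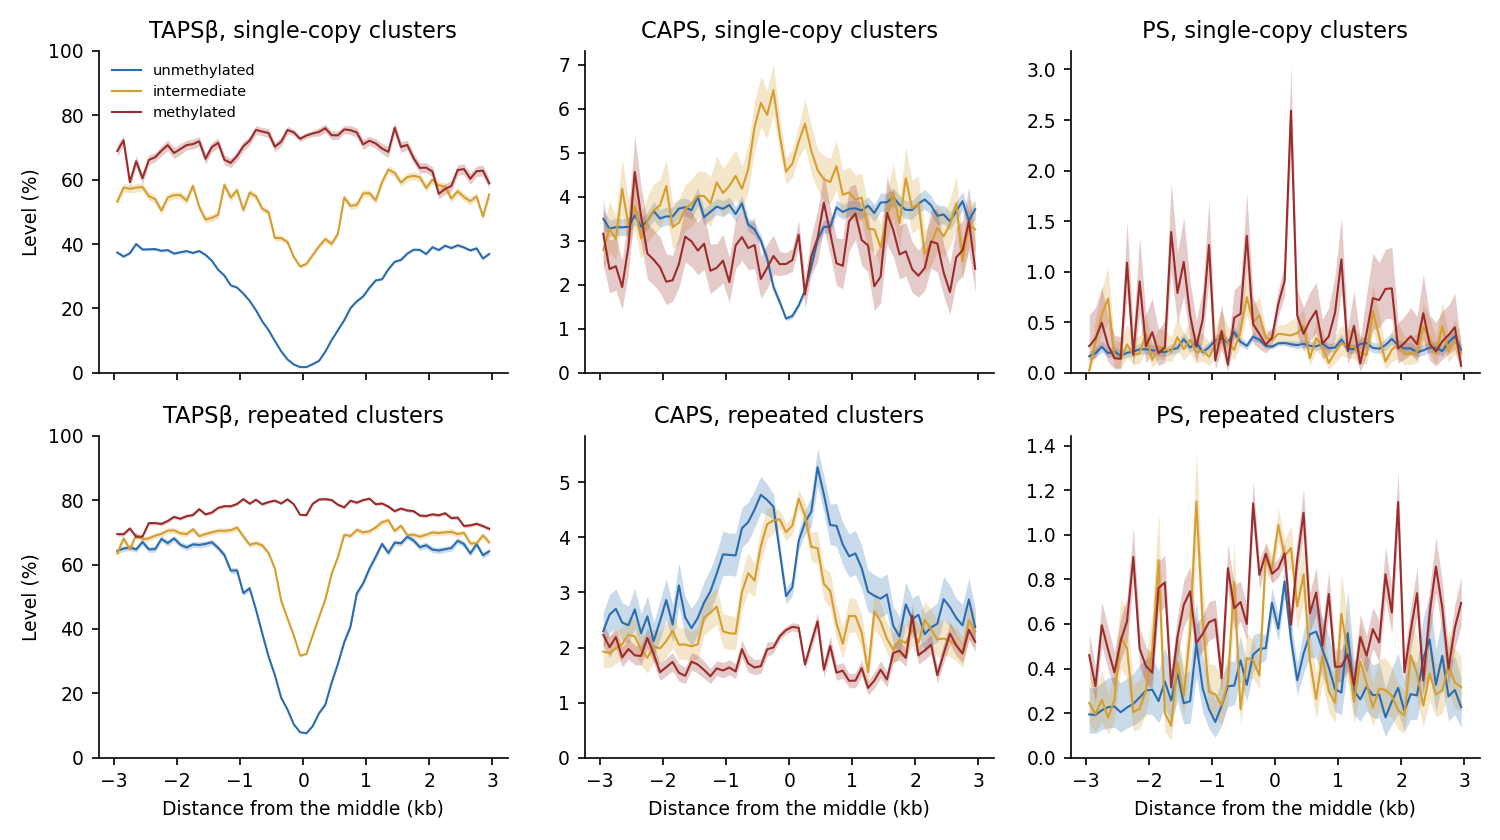
Pooled level of each library by distance from the middle of the cluster in kb, in bins of 100 bp, for single-copy clusters (top) and clusters with a median above 1 copy (bottom), by methylation class; bands are 95% intervals, and the vertical scales differ between panels. TAPSβ dips in unmethylated and intermediate clusters, and CAPS dips in single-copy unmethylated clusters but has a crest at 400 to 600 bp in repeated ones.

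Clusters that share sequence were grouped to see whether copies of the same sequence had like levels. A cluster joined a group where at least 20% of the 31-base words of the smaller of both were shared with its seed, the cluster with the most such partners, and no repeat annotation was used. The 8 largest groups, named A to H by size, held 3103 of the 6148 clusters (50.5%), and each had members on 19 autosomes. Group A, with 883 clusters and a median of 2197 copies, was mostly unmethylated: 636 of 761 classed members (83.6%) were, the pooled TAPSβ level was 13.1%, and the quartiles of its members were 7.11 and 16.7%. It made up 56.1% of the unmethylated clusters of 10 or more copies. Group B (637 clusters) and group D (417) were spread from low to high, with quartiles of 15.2 and 42.1% in B and of 12.1 and 35.0% in D. Group E (259) was the most spread, with quartiles of 23.8 and 74.3%. Group C, with 422 clusters, was nearly all methylated, 346 of 359 classed members (96.4%), at a pooled TAPSβ level of 79.9%. Groups F, G and H were methylated in 92.4%, 82.9% and 89.6% of classed members. Unclassed were 46 of 190 clusters in F, 14 of 154 in G and 64 of 141 in H. Their median TAPSβ coverage was 2.86, 4.74 and 1.17 reads per listed cytosine over all members of F, G and H.

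CAPS also varied by group. It was 3.62% (3.52 to 3.72%) in A, 3.70% in B, 5.17% (5.04 to 5.31%) in D and 2.42% in E, and lower in the methylated groups C, at 1.37% (1.31 to 1.42%), F, at 2.02%, and H, at 1.29%. Group G went against this, with a CAPS level of 5.61% (5.46 to 5.77%) beside a TAPSβ level of 66.7%. Its PS level of 3.34% (3.22 to 3.45%) was also the highest of the 8, and variant-like cytosines were found in 35.1% of its clusters. Without them its CAPS level was 3.57%, below the 5.10% of group D, the 3.66% of B and the 3.61% of A, and its PS level was 1.02%, while the next largest move in CAPS was from 2.02% to 1.85%, in group F.

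**Figure D5:**
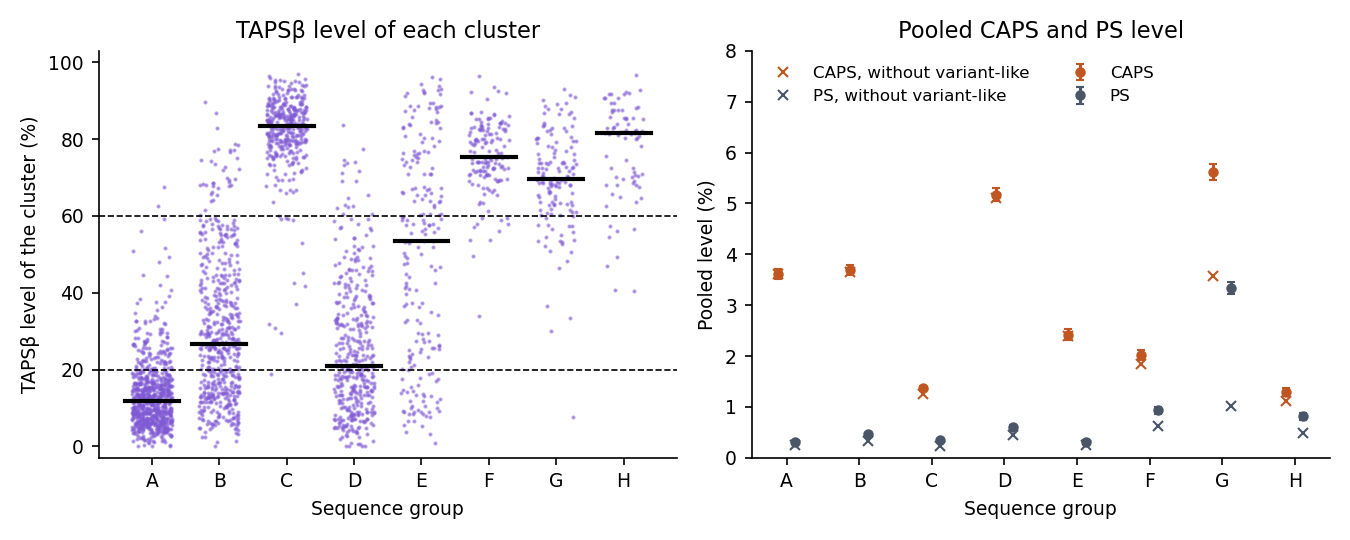
Left, TAPSβ level of every classed cluster in the 8 largest sequence groups, with a bar at the median and dashed lines at 20 and 60%; right, pooled CAPS and PS level of each group with 95% intervals, and crosses for the level without variant-like cytosines. Group A sits low at a median of 11.8%, C, F and H sit high, B, D and E spread across the classes, and G has the highest CAPS and PS levels, but without variant-like cytosines D is highest in CAPS at 5.10% and G stands at 3.57%.

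Motifs were searched in 300 bases around the middle of each cluster, on both strands, and are a description of letters only. Members of a group share sequence because of how groups were formed, so their motifs are not separate occurrences. GCCATNTTG, the core bound by YY1, occurred in 861 of 883 group A clusters (97.5%) and in 42.9% of group D, against 7.68% of all 27183 clusters. All clusters include the groups: of the 2088 with this motif, 861 were in A and 179 in D. A copy is visible in the group A sequence shown above, where it overlaps a CpG. CCGGAAG, an ETS core, was found in 74.9% of group A and in 11.6% of all clusters. TGACGTCA, the CRE, which holds a CpG at its centre, was found in 11.6% of group C and in 1.46% of all clusters, and in 0 of 883 group A and 0 of 417 group D clusters. GGGCGG, the GC box, occurred in 60.3% (57.6 to 63.0%) of single-copy unmethylated clusters, in 21.6% (16.1 to 27.9%) of intermediate and in 14.8% (9.39 to 21.7%) of methylated ones, against 66.2% at gene starts. CACGTG, the E-box, occurred in 8.97%, 14.2% and 9.86% of these 3 classes, with intervals that overlapped. GCGCATGCG, the NRF1 core, occurred in 0.358% of clusters between genes over all copies and 1.39% of those at gene starts. In the single-copy unmethylated, intermediate and methylated classes between genes it occurred in 1.02% (0.546 to 1.74%), 0.980% and 2.82% (0.773 to 7.06%). No cluster of groups A to D held it.

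The largest single clusters showed the range within each class. Clusters were named by the rule given with the processing. The largest unmethylated cluster, chr15:85500388-85502530, held 266 CpGs, 34.5 kb from Mirlet7c-2, a let-7 microRNA gene. Its levels were 1.83% in TAPSβ (127 of 6952 base calls), 1.14% in CAPS and 0.308% in PS. The next, with 248 CpGs, lay 6.67 kb from Scn8a, which encodes a voltage-gated sodium channel. This cluster had 1.50% in TAPSβ and 1.02% in CAPS, and its CAPS level was not called above the false-positive rate. The third, with 203 CpGs, lay 10.9 kb from Arhgap5 and had 7 modified calls of 4954 in TAPSβ, a level of 0.141% (0.0568 to 0.291%). Its CAPS level of 0.546% (0.312 to 0.885%) was also not called above the false-positive rate. All 3 were single-copy. The largest intermediate clusters were all of 10 or more copies, with 136, 83 and 81 CpGs, TAPSβ levels of 35.1%, 27.6% and 33.3%, and CAPS levels of 1.61%, 1.91% and 2.24% (0.464 to 6.40%). The largest methylated ones, with 88, 87 and 80 CpGs, were repeated as well and lay just inside the limit at 64.0%, 64.6% and 64.9% TAPSβ, with CAPS levels of 1.68%, 1.65% and 1.62%. These 6 clusters lay below the pooled CAPS level of their class. Their TAPSβ levels rest on thin coverage, with means of 0.957 to 4.13 reads per listed cytosine, against 13 at the median cytosine.

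The highest CAPS levels belonged to clusters that were also high in PS. Among 1169 clusters of usual coverage with at least 500 base calls in CAPS and PS, the highest was chr15:37841335-37841781, 11.9 kb from Rrm2b, with 15.3% (12.8 to 18.1%) in CAPS. Its PS level was 14.7% (12.4 to 17.3%), and without its 12 variant-like cytosines the levels were 2.76% and 0.308%. The second, 37.2 kb from Cyp2f2, had 12.1% in CAPS and 59 modified of 590 base calls in PS (7.70 to 12.7%), and 8.78% and 4.62% without 4 such cytosines. The third, on chromosome 4 and 156 kb from the pseudogene Hmgb1-rs18, had 11.6% in CAPS and the highest PS level of all, 16.2% (14.0 to 18.6%). Without 16 variant-like cytosines it had 4.62% and 3.14%. The other 2, with 11.0% and 10.7% in CAPS, had 7.04% and 4.66% in PS, and 4 of the 5 belonged to group G. The 3 clusters with the highest PS levels were the same as the first 3 by CAPS.

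The 3 clusters with the highest TAPSβ coverage belonged to 3 different classes. A cluster on chromosome 8, with 28 CpGs and 10 copies, had 102 reads per cytosine in TAPSβ and 0.475% (0.313 to 0.690%), 0.692% and 0.233% in TAPSβ, CAPS and PS. One 4.82 kb from Hsd17b13 had 96.5 reads and 52.4%, 3.90% and 2.32%. The last, a group G cluster on chromosome 1, had 69.8 reads and 61.7%, 7.19% and 5.18%. At this depth the levels of the first stayed near 0 in all 3 libraries, with no variant-like cytosine among its CpGs.

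Genes near the clusters were looked up in lists of known families, within 50 kb. Neighbouring clusters were counted singly even where little more than 50 bp lay between them. Near Sox14, for example, chr9:99769070-99769621 and chr9:99769674-99770258 counted as separate clusters. The intervals treat such neighbours as independent. Among all 2561 classed clusters within 50 kb of a protein-coding gene 55.1% were unmethylated, and among the 1206 single-copy ones 84.8% (82.7 to 86.8%) were. Developmental transcription factors, such as the Hox, Pax, Sox and Nkx families, had 141 clusters beside 70 genes. Of these 122 (86.5%, 79.8 to 91.7%) were unmethylated, 15 intermediate and 4 methylated, and 131 were single-copy. Of those 131, 119 were unmethylated. The 3 with the most CpGs lay beside Pax3, Neurod2 and Lmx1b, regulators of neural and limb development, with 115, 80 and 75 CpGs. Their TAPSβ levels were 0.0666%, 0.449% and 3.71% and their CAPS levels 0.746%, 0.692% and 1.59%. The CAPS levels beside Pax3 and Neurod2 lay near the false-positive rate of CAPS given with the processing. Beside Tbx5, a regulator of heart and forelimb development picked after its values were seen, a cluster of 66 CpGs had 17.9% in TAPSβ and 4.17% in CAPS (50 of 1200). Of the other 4 clusters near Tbx5, 2 were intermediate, with 193 of 435 and 162 of 735 modified TAPSβ calls, and 2 were unmethylated, with 74 of 544 and 24 of 1516. Zinc finger genes (Zfp) had 79 clusters, of which 59 (74.7%) were unmethylated and 13 methylated. Of them 69.6% were single-copy, against 47.1% of all clusters at this distance, and 51 of the 55 single-copy ones were unmethylated. Olfactory and vomeronasal receptor genes, which lie in repeat-rich arrays, had 187 clusters, of which 65 (34.8%) were unmethylated and 86 (46.0%) methylated, and 8.56% of them were single-copy. Of the 16 single-copy ones 9 were unmethylated.

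Imprinted genes, which are expressed from the allele of 1 parent under the control of allelic methylation, had 13 clusters beside 9 genes, 12 unmethylated and 1 intermediate. The intermediate one lay 7664 bp from Zdbf2, with 20 CpGs, 35.3% in TAPSβ (126 of 357 base calls), 3.89% in CAPS (10 of 257) and 0.811% in PS (3 of 370). A second cluster, 24569 bp from Zdbf2, had 0.753% in TAPSβ. Beside Usp29, a paternally expressed gene, 2 clusters had 14.9% and 17.1% in TAPSβ and 4.44% (11 of 248) and 6.94% (22 of 317) in CAPS. A cluster 29850 bp from Rasgrf1 had 12.4% in TAPSβ and 0.547% in CAPS, and one 12529 bp from Meg3 had 10.4% and 1.61%. Beside Cdkn1c, which encodes an inhibitor of cell division, 3 clusters had 7.87%, 1.37% and 1.57% in TAPSβ. The clusters beside Ndn, Plagl1, Kcnk9 and Trappc9 had between 0.399% and 8.62%, and the one beside Ndn had 58 TAPSβ base calls. No cluster on this list reached 60% TAPSβ, but 11 of the 13 were single-copy, and of all single-copy clusters within 50 kb of a protein-coding gene 5.06% were methylated. A cluster methylated on 1 allele only would stay below this limit, so the limit says nothing about allelic methylation. The 13 clusters are few, and the interval of the unmethylated share ran from 64.0 to 99.8%.

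The pluripotency list had 4 clusters. Both that had Klf4, a factor that keeps stem cells undifferentiated, as their nearest protein-coding gene, at 46472 and 11933 bp, were unmethylated, with 5 of 880 and 0 of 1145 modified TAPSβ calls. The one beside Zfp42 (Rex1), a marker of naive stem cells, had 9.96% in TAPSβ and 1.22% in CAPS at 23 copies. The cluster 13959 bp from Dppa3, a maternal factor that protects methylation in the early embryo, was intermediate at 30.9% (294 of 951). Its CAPS level was 7.64% (34 of 445) and its PS level 0 of 692 base calls.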

How the data were processed

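gDNA of E14 mESCs was sequenced after TAPSβ, CAPS and PS, with 1 library each and no replicates. Trim Galore 0.3.1, BWA 0.7.12 and Picard 2.3.0, versions from the submitters' processing notes, were used by the authors for trimming, mapping to mm9 and removal of duplicates, reads of low mapping quality were left out, and modified bases were called with asTair. The deposited files list, for each CpG cytosine and strand, the fraction of modified base calls and the counts of modified and unmodified base calls, none of them normalized. In the study's own analysis, sites in artifact-prone regions and at known E14 variants were left out. Whether the deposited counts already lack these sites was not given in the sources used here, and no such list was applied here.

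Counts were pooled per cluster over both strands. Modified base calls were not corrected for conversion or false positives. Copy numbers, GC content, motifs and sequences were read from NCBIM37, the same build as mm9, and genes from GENCODE M1. Shares and levels carry exact (Clopper-Pearson) 95% binomial intervals. Cytosines with at least 5 reads and clusters with at least 50 base calls were tested for an excess (exact binomial, one-sided) over 0.0072 for CAPS and 0.0027 for PS, the study's spike-in false-positive rates, with Benjamini-Hochberg adjustment at 0.05. These p-values are too small where base calls of 1 read are counted several times. The test was checked on simulated data. Clusters were named by rule: the 3 with the most CpGs per class and the 5 highest in CAPS and 3 highest in PS with at least 500 base calls in both, all among clusters of usual coverage (at most 2 times the median cytosine in every library), the 3 with the highest TAPSβ coverage, and those beside imprinted genes. Clusters beside developmental transcription factors and those of the pluripotency list were named outside this rule. 1 autosome was not used for naming. The members, class limits and gene lists were chosen with earlier results of these data known. Copy sets, sequence groups, motifs and TAPSβ steps were chosen after the data were seen. Alternatives changed the class limits, the reads or base calls needed, the pooling, the strand, the cluster definition, the distance from genes, the false-positive rates and the treatment of variant-like or highly covered sites. Analyses used pandas 2.3.3, scipy 1.17.1, numpy 2.4.6 and matplotlib 3.10.9 under Python 3.11.15.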

Additional observations from a re-analysis of the deposited data

How the results depend on the processing

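The split into classes depended on most choices, while the order of the CAPS levels of intermediate and methylated clusters did not. Unmethylated, intermediate and methylated shares were 31.8%, 53.9% and 14.3% with limits of 10 and 80%, and 53.4%, 9.54% and 37.1% with limits of 30 and 50%. They were 41.6%, 24.3% and 34.1% beyond 10 kb from genes, 59.7%, 17.9% and 22.4% for clusters of 30 or more CpGs, and 71.7%, 11.2% and 17.2% with at most 30 bp between CpGs. Single-copy clusters alone gave 78.6%, 12.6% and 8.78%, and clusters of 10 or more copies alone 33.9%, 26.8% and 39.4%, both added after the data were seen. With at least 200 base calls the unmethylated and methylated shares were 53.4% and 24.9%, on the plus strand 47.4% and 30.4%, and on the minus strand 47.9% and 30.6%. The intermediate to methylated ratio in CAPS ranged from 1.77 to 2.41 over 14 alternatives. The methylated to unmethylated ratio in PS ranged from 1.32 to 2.82 over 14. It was 0.626 in clusters of 2 to 9 copies, a set not among the 14. Single-copy clusters without variant-like cytosines, also not among them, had PS levels of 0.241% where methylated and 0.250% where unmethylated. The methylated to unmethylated ratio in CAPS was 0.982 without variant-like cytosines, with clusters classed again without them and an interval that included 1. It turned to 0.585 in clusters of 10 or more copies. The cause was not tested. Called cytosines in CAPS fell to 1340 with at least 10 reads, where fewer were tested (1.66%, against 1.96% across all chromosomes), and called clusters in PS to 211 without variant-like cytosines, which lowers PS by construction (3.77%, against 1.22% of all clusters). Called clusters in CAPS ranged from 2326 of 4317 with at least 200 base calls (53.9%, against 31.7% of all clusters) to 3878 at a rate of 0.0038 (69.9%, against 54.5%) over 4 alternatives, among them a rate of 0.0062 added after the data were seen. No paired analysis was possible because each method had 1 library and no replicate groups exist. Differences between library preparations and between methods cannot be told apart, and copies in the reference need not be those of E14.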
